A study of Arabidopsis thaliana with 18 samples.

Results

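AT1G05340 and AT2G32190 are 2 Arabidopsis thaliana genes for small cysteine-rich proteins with a single predicted membrane span, and each was followed through a probe set of its own on Affymetrix ATH1 arrays. They are 2 of 13286 genes that have a probe set of their own in the annotation used here. Both were chosen by their large log2 changes between potassium-starved and control shoots on these arrays, so that contrast, and every other contrast with the potassium-starved shoot arrays, is given as a description with no test. Shoots and whole roots of ecotype Ws-2 at growth stage 3.90 were compared in 6 groups of 3 arrays. Potassium-starved plants received a dilute Murashige and Skoog nutrient solution that lacked potassium. Caesium-treated plants received the dilute solution with added caesium at 2 mM. Caesium is chemically close to potassium and competes with it for uptake. Control plants carry no treatment entry in the labels. Each sample pooled 40 to 50 plants, and nothing in the labels shows that the replicates were grown separately. The p-values therefore cover only the spread from sample to sample, which may be technical. Each sample is a whole organ, in which more expressing cells and more RNA per cell cannot be told apart.

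Proteins of this kind share a cysteine-rich transmembrane module, called CYSTM, a short C-terminal stretch in which cysteines lie within or next to the membrane span. The module occurs in plants, fungi and animals, and many of the plant genes are known for rapid induction by salt, heat, ultraviolet light or pathogens. AT1G05340 is also known as a hallmark gene of oxidative stress, a transcript that rises with many different reactive oxygen species. AT2G32190 lies on chromosome 2 beside 2 further CYSTM genes, AT2G32200 and AT2G32210, which follow it directly in the TAIR10.1 gene order. A further probe set matches AT2G32190 and AT2G32210 together and cannot tell them apart; it is called the shared probe set below. AT1G05340 lies on chromosome 1 with no listed CYSTM gene among the 3 genes on either side.

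The arrays carried the organ they were labelled with. PRK, a Calvin cycle kinase, gave signals of 12.4 to 32.1 on the root arrays and 641 to 2441 on the shoot arrays, while the root peroxidase AT5G17820 gave 552.8 to 1291.9 on the root arrays and 1.1 to 5.1 on the shoot arrays. PYK10, a root beta-glucosidase, lay between 1914.9 and 3501.4 on the root arrays. In shoots it was highest on the replicate 2 array of every group, at 902.7 with potassium starvation, 948.5 with caesium and 1199.7 in control, against 46.9 to 521 on the other shoot arrays. Median signals of the 18 arrays lay between 33.0 and 45.4, and with so few arrays per group the number of arrays limits the precision. In roots, replicate 1 under potassium starvation and replicate 2 under caesium have titles that mark them as repeats. Scanner background, the average background brightness that the labels give for each array, was lower on the arrays of treated roots. It was 61.05, 60.97 and 73.96 in potassium-starved roots, 66.48, 63.59 and 72.51 in caesium-treated roots and 79.15, 75.72 and 76.05 in control roots.

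Potassium-starved shoots had the highest signals of both genes in the whole study. AT1G05340 had signals of 885.8, 1367.4 and 378.5 in potassium-starved shoots, against 52.8, 45.6 and 20.1 in control shoots. AT2G32190 had 593.4, 988.9 and 206.9 in potassium-starved shoots, against 34.6, 29.2 and 6.6 in control shoots. In both genes the lowest potassium-starved array lay far above the highest control array, as it did, by any margin, in 17.2% of all probe sets tested. Within both of these groups the arrays stood in the same order for both genes. Replicate 2 was highest and replicate 3 lowest in potassium-starved shoots, and replicate 1 was highest and replicate 3 lowest in control shoots. In caesium-treated shoots the orders were opposite, with replicate 1 highest for AT1G05340 and lowest for AT2G32190.

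On the scale used for all changes here, log2 of the signal plus 16, AT1G05340 was 3.88 ± 0.39 (SE, n = 3 per group) higher in potassium-starved than in control shoots and AT2G32190 was 3.79 ± 0.47 higher. Only 4 and 10 of the 13647 probe sets tested in shoots had a larger change, and 12.1% of those probe sets were called higher. Nothing is read from these places, since they chose the genes. Taken replicate by replicate, the differences of AT1G05340 were 3.71, 4.49 and 3.45 and those of AT2G32190 were 3.59, 4.47 and 3.30, so that each replicate number gave nearly the same size in both genes. The control mean of AT2G32190, 23.5 ± 14.9 (SD, n = 3), lay below the floor for testing, a signal of 26.7, so its size depends on the added 16. Without potassium-starved shoot replicate 2, the array with the highest signals, the changes were 3.48 and 3.31. Of the 3 measured shoot markers, 2 were called lower in potassium-starved than in control shoots, as 17.1% of all probe sets were. The changes were -0.94 ± 0.29 for PRK and -0.96 ± 0.23 for SBPASE, a Calvin cycle phosphatase (SE, n = 3; limma adjusted p = 0.0305 and 0.0124). The third, RCA (RuBisCO activase), did not pass, at -0.36 ± 0.19 (limma adjusted p = 0.179). The summed signal of the 3 markers was 3318 to 5895.4 in potassium-starved and 6865.8 to 7669 in control shoots. PRK was lowest of all shoot arrays, at 641, on potassium-starved replicate 2. The part of these differences in the result was not tested.

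The shared probe set repeated this pattern. It had signals of 702.6, 1180.7 and 361.5 in potassium-starved shoots, against 73.1, 26.1 and 15.3 in control shoots, a log2 change of 3.81 ± 0.42 (SE, n = 3). Since it also covers AT2G32190, this too is a description, and the part of AT2G32210 in it cannot be told apart.

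**Figure D1:**
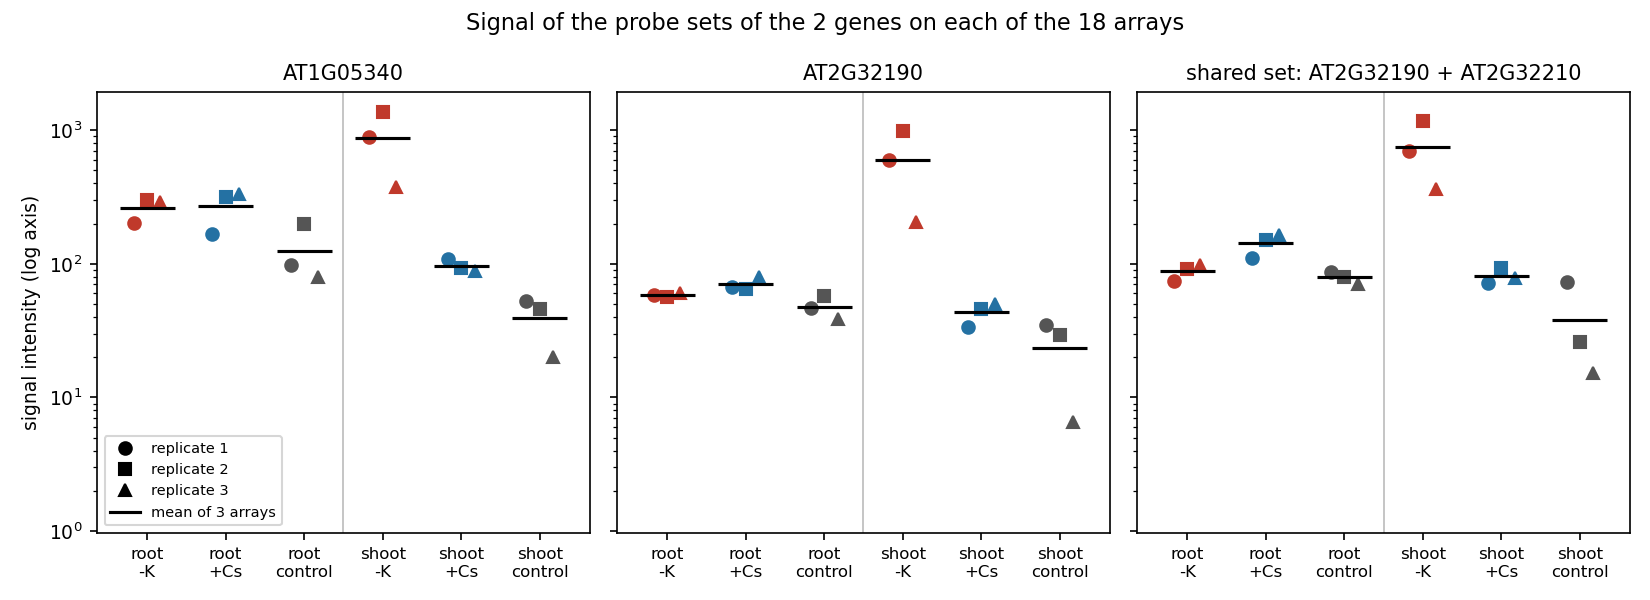
Signal intensity (log axis) of AT1G05340, AT2G32190 and the probe set shared by AT2G32190 and AT2G32210 on each array, by organ and treatment (-K, potassium-starved; +Cs, caesium-treated); points are single arrays with a shape for each replicate number, and bars are means of 3 arrays. Potassium-starved shoots stand apart in all 3 panels, with AT1G05340 at 378.5 to 1367.4 against 20.1 to 52.8 in control shoots, while the root groups lie closer together.

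Roots were not used to choose the genes. AT1G05340 had higher means in roots under either treatment, by a fold of 2.07 with potassium starvation on the signal plus 16 scale, but neither difference passed the test over all probe sets. Its signals were 201.8, 299.2 and 289.2 in potassium-starved roots, against 98.8, 197.5 and 79.8 in control roots. These groups did not overlap, though the lowest potassium-starved array lay just above control replicate 2; 10.2% of all probe sets tested were higher without overlap. The log2 change was 1.05 ± 0.31 (SE, n = 3), with a 95% interval of 0.36 to 1.74 and a limma adjusted p of 0.121. In this comparison 1.47% of the probe sets tested passed, and 82 of 13647 had a larger change than AT1G05340. Control root replicate 2 decided the call: without it the change was 1.39 at a limma adjusted p of 0.0485, the only call among the 6 fits that left out 1 array.

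AT1G05340 had nearly the same mean in caesium-treated roots. Its signals were 166.2, 315.3 and 331.9 in caesium-treated roots, so that replicate 1 lay below the highest control array and the groups overlapped. The log2 change against control roots was 1.05 ± 0.31 (SE, n = 3; 95% interval 0.36 to 1.74) at a limma adjusted p of 0.275. The difference was positive in every replicate, at 0.67, 0.63 and 1.86. Each of the 3 measured shoot markers was above its control root arrays without overlap in these roots. PRK and SBPASE lay below the floor in roots and were not tested there. Only RCA can therefore be set beside the probe sets tested, of which 7.46% were higher without overlap. The summed signal of the 3 markers was 184.8 to 254.6 in caesium-treated roots, against 62.2 to 162.1 in control roots. RCA alone of these lay above the floor in roots, with a log2 change of 1.07 ± 0.34 (SE, n = 3; limma adjusted p = 0.296). In potassium-starved roots the sum was 88.9 to 167.3, which overlapped with control roots. The part of these markers in the change of AT1G05340 was not tested. In this comparison limma called 0% of the 13647 probe sets, with 1352 at an unadjusted p under 0.05. Both root comparisons share the 3 control arrays. Set directly against each other, caesium-treated and potassium-starved roots differed in AT1G05340 by 0.0011 ± 0.31 on the log2 scale, with an interval of -0.69 to 0.69 that leaves room for a difference in either direction (limma adjusted p = 0.998).

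The root signals of AT2G32190 lay within a narrow range, between 38.5 and 80.3 on all 9 arrays. They were 58.5, 56.2 and 60.7 in potassium-starved roots, against 47.0, 57.4 and 38.5 in control roots, and the groups overlapped. Caesium-treated roots had 67.0, 65.2 and 80.3, all above the control arrays and all above the potassium-starved arrays, as in 7.46% and 16.4% of all probe sets tested. The log2 change with potassium starvation was 0.24 ± 0.14 (SE, n = 3; 95% interval -0.08 to 0.55, limma adjusted p = 0.405). With caesium it was 0.45 ± 0.14 (interval 0.14 to 0.77, limma adjusted p = 0.303), and caesium-treated against potassium-starved roots gave 0.22 ± 0.14 (interval -0.10 to 0.53, limma adjusted p = 0.376). None of these passed; among all probe sets 5.06% passed in the last comparison.

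The shared probe set showed the same order in roots, with 111.0, 150.4 and 165.2 in caesium-treated roots and 74.2, 91.1 and 98.6 in potassium-starved roots, against 87.0, 80.2 and 70.4 in control roots. Its log2 change with caesium was 0.72 ± 0.16 (SE, n = 3; limma adjusted p = 0.173), and caesium-treated against potassium-starved roots gave 0.60 ± 0.16 (limma adjusted p = 0.0595). With the lower scanner background of treated roots as a covariate, the changes of AT1G05340 against control roots were 1.22 for potassium starvation and 1.19 for caesium, at limma adjusted p of 0.552 and 0.702.

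In caesium-treated shoots both genes lay far below the level in potassium-starved shoots, and of the 2 genes only AT1G05340 lay above all control arrays. AT1G05340 had 108.4, 92.8 and 88.0 in caesium-treated shoots, against 52.8, 45.6 and 20.1 in control shoots, and these groups did not overlap, as 14.8% of all probe sets tested did not in this direction. The log2 change was 1.07 ± 0.39 (SE, n = 3; 95% interval 0.21 to 1.93) at a limma adjusted p of 0.217. Replicate numbers paired the shoot samples of this comparison, and with the replicate number as a block the same change had a limma adjusted p of 0.0399. The block also raised the number of all probe sets called in this comparison, by the counts given in the closing section. This contrast shares the control arrays with the one that chose the genes, and is not independent of that choice.

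AT2G32190 had 33.6, 45.9 and 50.3 in caesium-treated shoots, against 34.6, 29.2 and 6.6 in control shoots. Replicate 1 was no higher with caesium, so the groups overlapped, and the largest of the 3 replicate differences, 1.55, came from the low control replicate 3. The log2 change was 0.66 ± 0.47 (SE, n = 3; 95% interval -0.37 to 1.69, limma adjusted p = 0.567), or 0.30 without control shoot replicate 3. Neither gene was called without the block, where 0.997% of the probe sets were. As a description, caesium-treated shoots lay below potassium-starved shoots by -2.82 ± 0.39 for AT1G05340 and by -3.13 ± 0.47 for AT2G32190 (SE, n = 3).

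AT1G05340 was higher in roots than in shoots in both control and caesium-treated plants. In control plants its signals were 98.8, 197.5 and 79.8 in roots, against 52.8, 45.6 and 20.1 in shoots, with no overlap. The log2 change of control roots against control shoots was 1.31 ± 0.39 (SE, n = 3) at a limma adjusted p of 0.00814, fitted over the 18 arrays. The control shoot arrays entered the choice of the genes, so this difference is not independent of it. Organ differences are common on these arrays: 54.6% of the probe sets passed, 31.8% as higher and 22.8% as lower in roots, and 36.6% were higher in roots without overlap. The call rested on control root replicate 2, without which the change was 0.97 at a limma adjusted p of 0.0552. In caesium-treated plants, whose arrays had no part in the choice of the genes, AT1G05340 had 166.2, 315.3 and 331.9 in roots, against 108.4, 92.8 and 88.0 in shoots. This log2 change was 1.30 ± 0.39 (SE, n = 3; limma adjusted p = 0.00981), where 48.7% of the probe sets passed, 26.9% as higher in roots, and 34.6% were higher without overlap. It also passed in all 6 fits without 1 array. In potassium-starved plants the order was the opposite, with roots lower than shoots by -1.52 ± 0.39, as a description.

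For AT2G32190 the root arrays also lay above the shoot arrays without overlap in control and caesium-treated plants, as in 36.6% and 34.6% of all probe sets tested. The tests did not pass, and the control comparison uses the control shoot arrays that entered the choice of the genes. The log2 change of roots against shoots was 0.76 ± 0.38 (SE, n = 3; limma adjusted p = 0.0969) in control plants and 0.56 ± 0.38 (limma adjusted p = 0.239) in caesium-treated plants. In potassium-starved plants it was -2.79 ± 0.38, a description. The response to caesium did not differ detectably between organs: root minus shoot, the log2 difference was -0.014 ± 0.55 (95% interval -1.17 to 1.14) for AT1G05340 and -0.20 ± 0.53 (interval -1.33 to 0.92) for AT2G32190, with limma adjusted p of 0.997 and 0.931, where 0.381% of the probe sets passed. The same difference for potassium starvation was -2.83 ± 0.55 and -3.55 ± 0.53, given as a description because it holds the contrast that chose the genes. Of the 14 pairs of gene and comparison that were tested, 2 passed, both of them root against shoot differences of AT1G05340. In caesium-treated plants the difference of means uses none of the arrays that chose the genes. The SE and adjusted p of that difference come from a fit over all groups, which includes those arrays.

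**Figure D2:**
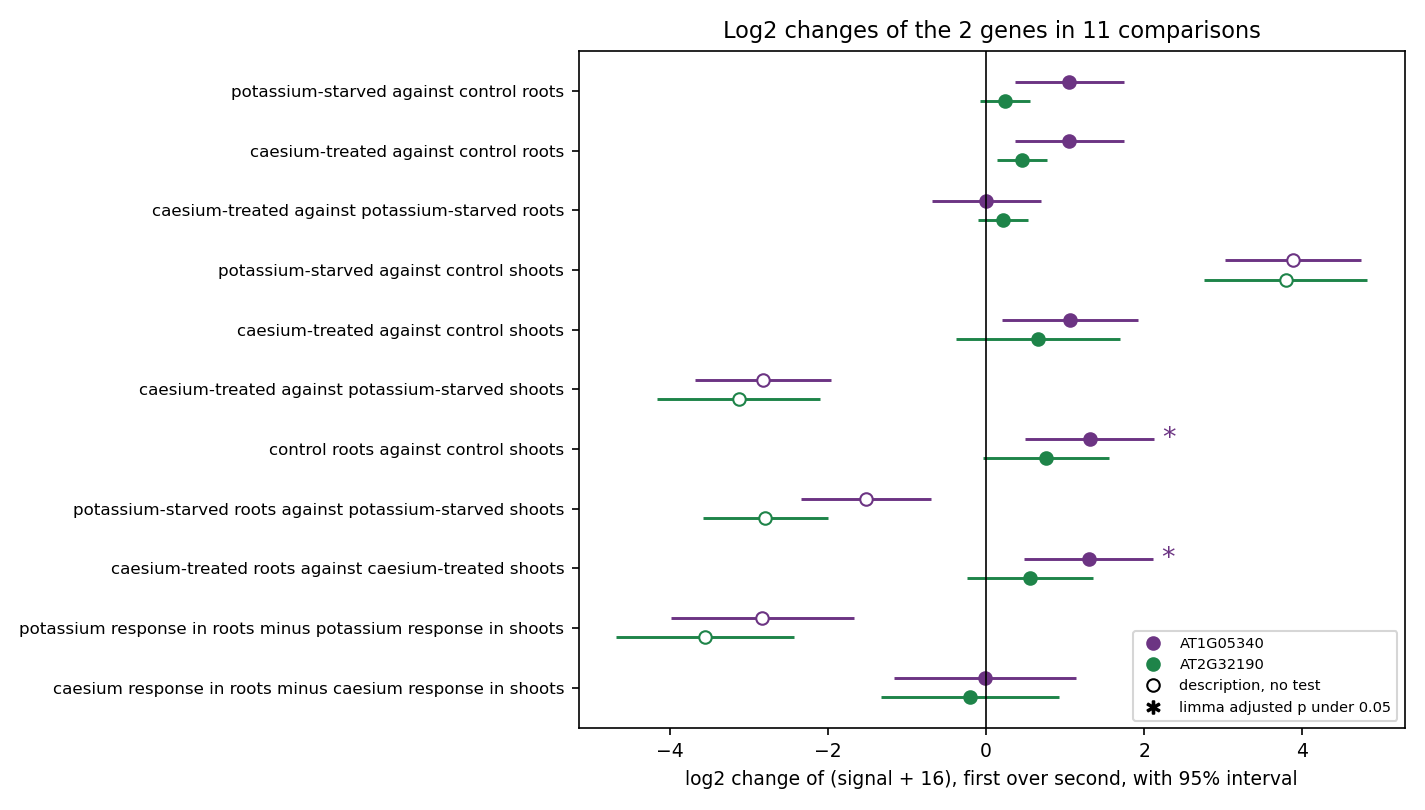
Log2 change of signal plus 16 for AT1G05340 (purple) and AT2G32190 (green) in each comparison, first-named group over the second, with 95% intervals from limma; open circles are descriptions that use the potassium-starved shoot arrays, and stars mark a limma adjusted p under 0.05. The open circles lie farthest from 0, at 3.88 and 3.79 in potassium-starved against control shoots, and stars stand only at AT1G05340 in control and caesium-treated roots against shoots.

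The 6 groups ranked in the same order for both genes. From the highest mean down it ran potassium-starved shoots, caesium-treated roots, potassium-starved roots, control roots, caesium-treated shoots and control shoots. For AT1G05340 the means were 877 ± 495, 271 ± 91.3, 263 ± 53.6, 125 ± 63.2, 96.4 ± 10.7 and 39.5 ± 17.2 (SD, n = 3 each). Neighbours in this order overlapped in 2 places, between both treated root groups and between control roots and caesium-treated shoots. For AT2G32190 the means were 596 ± 391, 70.8 ± 8.25, 58.5 ± 2.25, 47.6 ± 9.47, 43.3 ± 8.66 and 23.5 ± 14.9 (SD, n = 3 each). Here all neighbours from potassium-starved roots down to control shoots overlapped, while caesium-treated roots lay above potassium-starved roots with no overlap. Outside potassium-starved shoots the arrays of AT2G32190 lay between 6.6 and 80.3, with a gap to 206.9, the lowest potassium-starved shoot array.

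The spread among replicates differed widely between groups. The SD was 56.4% and 65.6% of the mean for AT1G05340 and AT2G32190 in potassium-starved shoots and 43.5% and 63.3% in control shoots, against 11.1% and 20.0% in caesium-treated shoots. In roots it was 20.3% of the mean for AT1G05340 with potassium starvation, 33.7% with caesium and 50.4% in control, and for AT2G32190 it was 3.85%, 11.6% and 19.9% in these groups. On 12 of the 18 arrays both genes lay on the same side of their own group mean on the log2 scale.

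The genes with the most similar pattern were named by a fixed measure, Pearson's r of log2 signals over the 18 arrays, among 7315 other probe sets with 1 gene name and a mean above the floor. The arrays share the gap between potassium-starved shoots and the rest, which weighs heavily in such an r, so these values are a description. For AT1G05340 the 5 most alike were AT5G10695 and AT2G41410, a calmodulin-like protein (r = 0.933 for both), AT1G19020 (0.928), AT1G31130 (0.923) and AT1G50740, a predicted membrane protein (0.919). For AT2G32190 they were AT1G74010, annotated as a strictosidine synthase-like protein (0.959), AT1G50740 (0.947), AT1G18210, a calmodulin-like protein (0.937), AT5G10695 (0.933) and CML38, a calmodulin-like protein (0.926). AT5G10695 and AT1G50740 stood in both lists. The 2 genes themselves had r = 0.901 with each other, place 12 for AT1G05340 and place 14 for AT2G32190. Over the 9 shoot arrays r between them was 0.989 and over the 9 root arrays 0.816. The shared probe set was the closest of all 13646 others to AT2G32190 (r = 0.976).

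The sizes differed among these genes. AT2G41410 was 3.17 ± 0.37 higher on the log2 scale in potassium-starved than in control shoots, AT1G74010 3.05 ± 0.43 and AT1G19020 2.84 ± 0.42, whereas AT1G50740 was 1.45 ± 0.21 and AT1G31130 1.23 ± 0.17 higher (SE, n = 3). In roots, potassium starvation gave 0.86 ± 0.23 for AT2G41410 and 0.62 ± 0.14 for AT1G31130 and 0.20 to 0.42 for the other 6 named genes, again as a description.

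**Figure D3:**
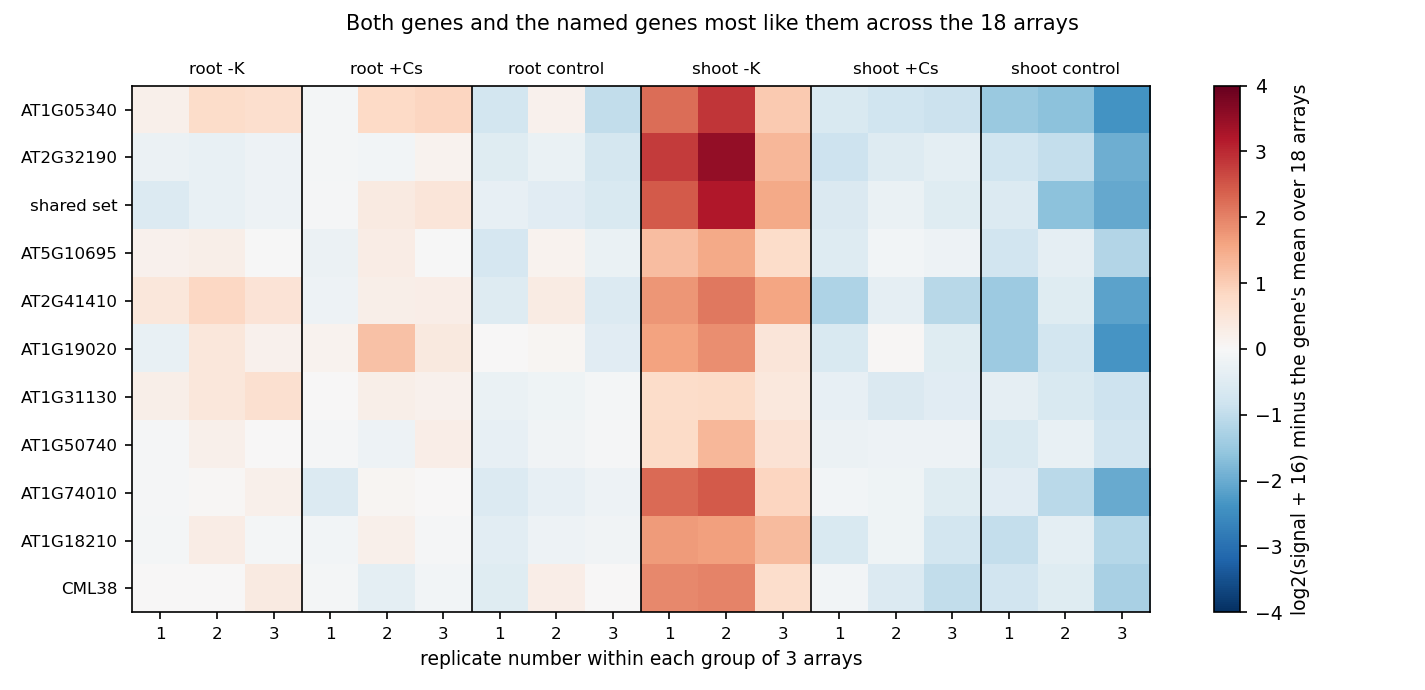
Log2 signal of both genes, the shared probe set and the named genes most like them, each minus its own mean over the 18 arrays (colour scale), with 3 arrays per group (-K, potassium-starved; +Cs, caesium-treated). In all 11 rows the highest array is a potassium-starved shoot array, replicate 2 for AT1G05340 and AT2G32190, and the lowest is control shoot replicate 3.

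The other CYSTM genes did not all follow. Of 12 others listed, 4 had a probe set of their own, and 3 of these were above the floor for testing in each organ. In potassium-starved shoots 29.2% of all probe sets passed. AT1G56060, a CYSTM gene on chromosome 1, had signals of 556.1, 734.2 and 240.3 in potassium-starved shoots, against 83.2, 79.4 and 35.1 in control shoots (log2 change 2.61 ± 0.37, limma adjusted p = 0.000854), and it passed in all 13 alternative fits. As in both genes above, replicate 2 was highest and replicate 3 lowest in potassium-starved shoots. AT5G04080, a CYSTM gene on chromosome 5, had 67.8, 62.5 and 61.1 in potassium-starved shoots, against 24.6, 16.4 and 24.0 in control shoots, a log2 change of 1.09 ± 0.18 (SE, n = 3). Its means in caesium-treated and control shoots, 20.4 and 21.7, lay below the floor of 26.7, so it entered the test only through potassium-starved shoots, and its change there is a description.

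In roots the other CYSTM genes showed 0 calls among 3 by limma with either treatment, where 1.47% of all probe sets passed with potassium starvation and 0% with caesium. At an unadjusted p under 0.05 there was 1 of 3 with potassium starvation, against 2507 of 13647 probe sets, and 0 of 3 with caesium. Counts this small are near those shares and show nothing particular to the family. AT1G56060 was dim in roots, at 32.1, 33.1 and 24.9 in potassium-starved roots and 39.4, 33.2 and 28.3 in caesium-treated roots, against 23.3, 32.1 and 28.9 in control roots. AT5G04080 had 152.6, 58.9 and 61.2 in potassium-starved roots, where replicate 1, titled as a repeat, stood apart, and 59.9, 92.2 and 54.0 in caesium-treated roots, against 89.9, 67.0 and 85.4 in control roots. In caesium-treated shoots there were also 0 calls among 3, against 0.997% of all probe sets, and 0 of 3 at an unadjusted p under 0.05, against 2068 of 13647. For AT1G56060 the response to potassium starvation, root minus shoot, was -2.55 ± 0.42 on the log2 scale. Its root means of 28.1 in control and 30.0 with potassium starvation lay below the floor of 30.1 over the 18 arrays. This difference is therefore a description. For AT5G04080 the same difference was -1.05 ± 0.36, also a description, since its control shoot mean of 21.7 lay below that floor.

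The organ differences of the family ran both ways. AT5G04080 was 1.36 ± 0.25 higher on the log2 scale in control roots than in control shoots (SE, n = 3), and AT1G56060 was lower by -0.84 ± 0.30 (limma adjusted p = 0.0254). The control root mean of AT1G56060, 28.1, lay below the floor of 30.1 over the 18 arrays. The size of its change therefore depends on the added 16. The shoot means of AT5G04080, 21.7 in control and 20.4 with caesium, lay below the floor of 30.1 over the 18 arrays. It entered the test only through its other groups, so its organ differences are a description. The call of AT1G56060 was lost in 5 of 14 alternative fits, at a limma adjusted p up to 0.106, 4 of them without 1 array (control shoot replicate 1 or 2, control root replicate 1 or 3). In caesium-treated plants the directions were the same, at 1.21 ± 0.25 for AT5G04080, again a description, and -1.06 ± 0.30 for AT1G56060 (limma adjusted p = 0.00713).

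The remaining measured members, AT3G22240 and AT2G33520, were named after their values were seen. AT3G22240, a bright CYSTM gene on chromosome 3, split the shoot arrays by replicate number: replicate 1 had 407.3 in potassium-starved, 98.5 in caesium-treated and 51.6 in control shoots, while replicates 2 and 3 of these groups lay between 2041.1 and 4850.1. With that spread its log2 change in potassium-starved shoots was 0.38 ± 1.72 (SE, n = 3; limma adjusted p = 0.889). In potassium-starved roots it had 3355.4, 5120.0 and 3905.3, against 2055.1, 2734.0 and 2204.3 in control roots. These groups did not overlap, and 10.2% of all probe sets tested were higher without overlap. The log2 change was 0.81 ± 0.18 (limma adjusted p = 0.059). It passed in 3 of 14 alternative fits, among them the one without potassium-starved root replicate 1 (0.041). Over the 14 fits the limma adjusted p ran from 0.0212 to 0.601. AT2G33520 was below the floor in both organs, at 8.2 to 33.8 on the 18 arrays.

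Of the other 4 hallmark genes of oxidative stress listed beside AT1G05340, 3 had a probe set of their own. In potassium-starved shoots 2 of the 3 rose and none fell, against 12.1% of all probe sets called higher and 17.1% called lower. AT1G57630, which encodes a Toll and interleukin receptor (TIR) domain protein, had signals of 455.8, 594.0 and 208.9 in potassium-starved shoots, against 32.2, 54.6 and 3.7 in control shoots (log2 change 3.31 ± 0.49, limma adjusted p = 0.00108). AT1G19020 had 855.3, 1010.2 and 380.2 in potassium-starved shoots, against 86.6, 153.8 and 39.0 in control shoots (log2 change 2.84 ± 0.42, limma adjusted p = 0.00108). Their replicates ranked as in AT1G05340, with replicate 2 highest and replicate 3 lowest under potassium starvation. AT2G21640, a mitochondrial protein of the oxidative stress response, did not pass, at 42.8, 17.4 and 40.9 in potassium-starved shoots, against 60.5, 44.1 and 28.6 in control shoots (log2 change -0.29 ± 0.25, limma adjusted p = 0.408).

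Under caesium the hallmark genes had a median log2 change of 1.17 in shoots, against 0.02 for all probe sets. By limma 0 of 3 were called, against 0.997% of all probe sets. At an unadjusted p under 0.05 there were 2 of 3, against 2068 of 13647 probe sets. With the replicate block, in these paired shoot samples, AT1G57630 (1.71 ± 0.49 without the block) and AT1G19020 (1.17 ± 0.42) passed at limma adjusted p of 0.00701 and 0.0186, as did AT1G05340. The block raised the calls among all probe sets too, by the counts given in the closing section. In caesium-treated roots 0 of 2 tested passed, where 0% of all probe sets did. Both had an unadjusted p under 0.05, as 1352 of 13647 probe sets did. Their log2 changes were 0.77 ± 0.30 and 0.69 ± 0.27. In potassium-starved roots they were 0.10 ± 0.30 and 0.22 ± 0.27 (SE, n = 3; limma adjusted p = 0.889 and 0.698), beside 1.05 ± 0.31 for AT1G05340. The response to potassium starvation was lower in roots than in shoots for AT1G19020, by -2.62 ± 0.55 (limma adjusted p = 0.00559 for root minus shoot over the 18 arrays). For AT1G57630 it was lower by -3.21 ± 0.63, a description, since its control root mean of 28.8 lay below the floor of 30.1 over the 18 arrays. AT2G21640 gave 0.44 ± 0.32, a description, since its means of 16.1 in control and 19.7 in potassium-starved roots lay below the root floor of 27.7. In control plants AT1G19020 was higher in roots than in shoots, as AT1G05340 was, at a log2 change of 1.41 ± 0.39 (limma adjusted p = 0.005), while AT2G21640 was lower by -0.88 ± 0.23, again a description. Whether AT1G05340 differed from them in roots was not tested.

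**Figure D4:**
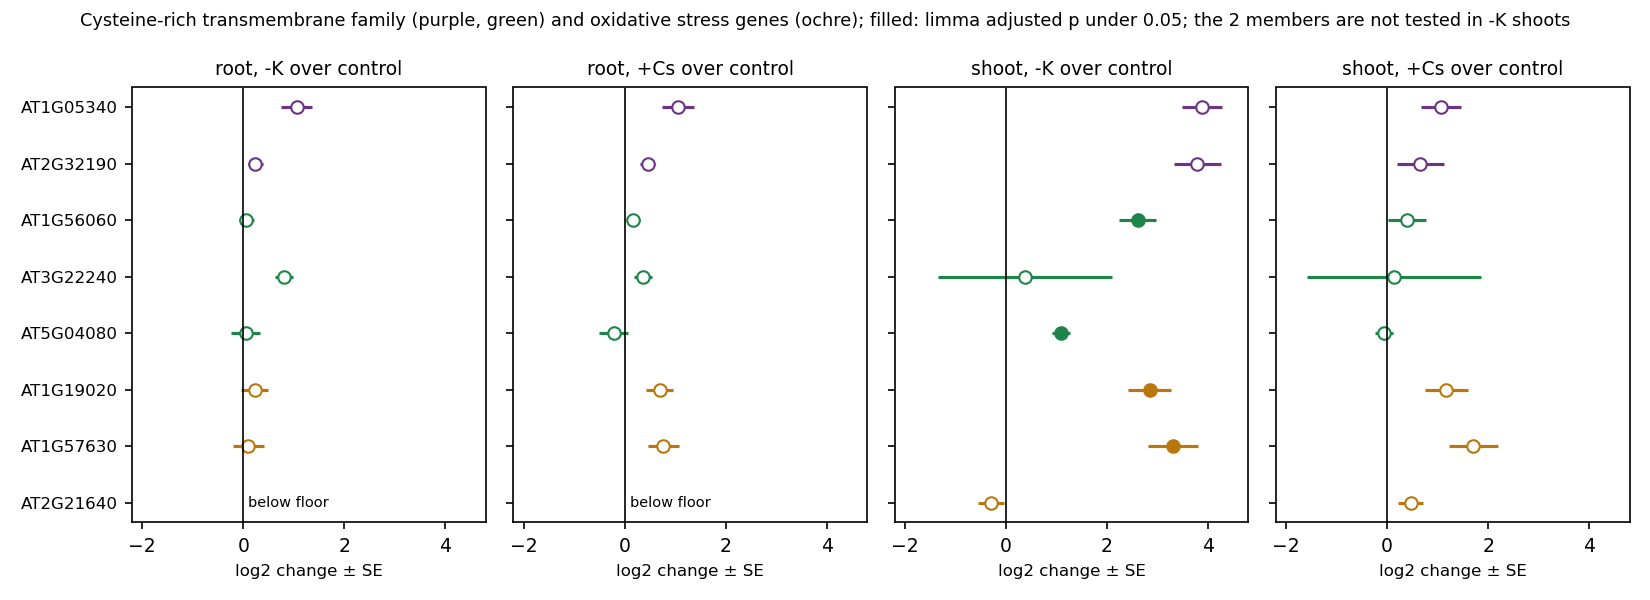
Log2 change against control with SE (n = 3 per group) for AT1G05340 and AT2G32190 (purple), other CYSTM genes (green) and other hallmark genes of oxidative stress (ochre) in roots and shoots without potassium (-K) or with caesium (+Cs); filled circles passed limma at an adjusted p under 0.05, and the purple circles in -K shoots were not tested. Filled circles stand only in -K shoots, at AT1G56060 (2.61), AT1G19020 (2.84), AT1G57630 (3.31) and AT5G04080 (1.09). AT5G04080 was above the floor in shoots only through that group, so its change is a description despite the fill.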

How the data were processed

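The deposited values are signal intensities per probe set on a linear scale, 1 array per sample. Per the file's values, the authors scaled each array to a mean of about 100 after trimming 2% of values from each end. Which program did so was not given in the sources used here. Of 22810 probe sets 64 were controls and were left out. Of the other 22746, 13513 matched 1 gene in the annotation tables, 503 several and 8730 were not listed.

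Signals were transformed as log2(signal + 16) without further scaling. Tests covered probe sets with a mean log2 value over the 40th percentile. This floor was a signal of 26.7 in shoots, 27.7 in roots and 30.1 over the 18 arrays, and 13647 probe sets lay above it in each case. Models were fitted with limma 3.58.1 in R 4.3.3, to the 9 arrays of an organ or, across organs, to all 18. P-values are two-sided and adjusted by the Benjamini-Hochberg method over all probe sets tested, with a threshold of 0.05. The pipeline was tested on simulated data.

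The 2 genes and the lists of CYSTM and oxidative stress genes were chosen with earlier results of these data known; the lists come from general knowledge of the families. Genes of like pattern were named as the 5 with the highest r. Replicate numbers were taken to pair samples where, for each number, deviations from group means had a correlation over 0.1. Shoot samples met this for caesium against control (lowest r 0.495) and potassium starvation against control (0.319), and root samples for caesium against control (0.180). Root samples did not meet it for potassium starvation (-0.030), nor did control roots against control shoots (0.013). Alternatives were pseudocounts of 1 and 64, median centring, quantile normalization, no filter, the replicate block, scanner background, repeats left out and each array left out. No sequences were used here.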

Additional observations from a re-analysis of the deposited data

How the results depend on the processing

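Values are log2 changes with limma adjusted p. With the replicate number as a block, 3 changes passed that had not before. They were AT1G05340 in potassium-starved roots (1.05, 0.0316), AT1G05340 in caesium-treated shoots (1.07, 0.0399) and AT2G32190 in control roots against control shoots (0.76, 0.0413). Of these comparisons the numbers pair the samples only in caesium-treated against control shoots. The block changed no other call of the 2 genes. With a pseudocount of 1, AT2G32190 in control roots against control shoots also passed (1.25, 0.0475). The near-zero difference of AT1G05340 between caesium-treated and potassium-starved roots changed sign with a pseudocount of 1 (-0.0017), median centring (-0.059), scanner background as a covariate (-0.030) and without the arrays titled as repeats (-0.30). The organ difference of the caesium response changed sign for AT1G05340 with a pseudocount of 64 (0.19), median centring (0.035), quantile normalization (0.089) and scanner background (0.32), and for AT2G32190 with scanner background (0.061). None of these sign changes came with a call, and their cause was not tested.

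Without 1 array at a time, the changes of AT1G05340 ranged from 0.82 to 1.39 in potassium-starved roots (1 of 6 called), 0.82 to 1.40 in caesium-treated roots, -0.17 to 0.30 between these, 0.78 to 1.25 in caesium-treated shoots, 0.97 to 1.55 in control roots against shoots (5 of 6 called), 1.13 to 1.60 in caesium-treated roots against shoots (6 of 6 called), -0.25 to 0.33 for the organ difference of the caesium response and 3.48 to 4.38 in potassium-starved shoots. Those of AT2G32190 ranged from 0.13 to 0.35, 0.35 to 0.56, 0.14 to 0.26, 0.30 to 0.88, 0.40 to 0.98, 0.43 to 0.64, -0.43 to 0.16 and 3.31 to 4.39 in the same order, with 0 called. Over all alternatives the potassium-starved shoot changes were 3.04 to 4.38 for AT1G05340 and 2.73 to 4.62 for AT2G32190.

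Counts of probe sets called moved by more than 1.5 times in several comparisons. With potassium starvation in roots the count was 200, but 130 with a pseudocount of 1, 93 without the filter, 724 with the block, 128 without the arrays titled as repeats, 1 with scanner background and 40 to 238 without 1 array. With caesium in roots it was 0, but 51 with the block and up to 13 without 1 array. With caesium in shoots it was 136, but 50 with a pseudocount of 1, 30 without the filter, 790 with the block, 206 with scanner background and 0 to 121 without 1 array. Between caesium and potassium starvation in roots it was 690, but 1629, 331 and 377 with the block, with scanner background and without the repeats, and 149 to 623 without 1 array. For the organ difference of the caesium response it was 52, but 19 and 104 with pseudocounts of 1 and 64, 26 without the filter, 263 with the block, 11 with scanner background, 9 without the repeats and 7 to 58 without 1 array. With potassium starvation in shoots it was 3983, but 2372 to 3808 without 1 array. With 3 arrays per group the precision is limited, and signals below the floor give no exact size.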
